A study of Rattus norvegicus with 4 samples.

Results

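The Hox genes of rat tendon stem/progenitor cells (TSPCs) were described as all rows of the gene table whose symbol was Hoxa, Hoxb, Hoxc or Hoxd followed by a number. This rule found 39 of 32623 rows, which carry 37 distinct names: 11 rows of the HoxA cluster, 10 of HoxB, 9 of HoxC and 9 of HoxD. TSPCs are fibroblast-like progenitors grown from tendon. RNA was sequenced from 2 libraries of TSPCs given U0126, an inhibitor of the kinase MEK that activates ERK, and from 2 control libraries of TSPCs given the solvent DMSO. All 4 libraries came from rat tendon. The animals' strain, sex and age, which tendon was sampled, the U0126 dose and how long it was given are not stated in the labels. The libraries are labelled as biological replicates, but whether they came from separate animals or cultures is not given, so p-values cover the spread between these libraries and may be technical.

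Hox genes encode homeodomain transcription factors that record a cell's position along the body axis. They lie in 4 clusters, and members at the same place in different clusters form paralog groups, numbered 1 to 13 along each cluster. Low numbers are used towards the head and high numbers towards the tail. In the mouse limb the high groups are used in order from shoulder or hip to digit, with group 10 patterning the upper segment, group 11 the middle segment with its tendons and muscles, and group 13 the hand and foot. Connective tissue cells keep much of their Hox pattern in adult life and in culture.

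Total counts were 38671289 and 36888913 in the U0126 libraries and 38890310 and 42785190 in the controls, and the 39 Hox rows held between 6363 and 7346 of them. Of 10 tested tendon markers, 6 were higher with U0126 and 0 lower by edgeR's quasi-likelihood test, beside 8.41% of all tested genes higher and 11.5% lower. The 6 included Comp (8.42-fold), Fmod (2.41-fold) and Bgn (1.67-fold). Tnmd had 2 counts with U0126 and 7 in controls. Defining markers of immune (Ptprc), epithelial (Epcam, Cdh1), Schwann (Sox10), endothelial (Cdh5) and muscle satellite cells (Pax7) had 0 counts in all 4 libraries. Other members of these lists were detected in all 4. Cd14 (immune) had 10.9 and 10.7 CPM with U0126, against 12.3 and 11.9 CPM in controls. Krt8 (epithelial), S100b (Schwann) and Tek (endothelial) are given at the end. The markers at 0 thus do not show that these cell types were absent. All 6 proliferation markers were lower with U0126. Their summed level was 42.9 and 30.9 CPM (counts scaled to library size) with U0126, against 297.1 and 313.3 CPM in controls. Among them Ccnb1, Plk1 and Rrm2 were 8.73-fold, 9.50-fold and 9.41-fold lower. The 3 tested muscle markers were also lower, Myod1 12.2-fold, Des 2.95-fold and Cdh15 3.53-fold, and the whole muscle list summed to 3.37 and 3.65 CPM with U0126, against 12.4 and 9.60 CPM in controls. Myog, on the same list but not tested, went the other way, with 25 and 8 counts with U0126, against 6 and 0 in controls. The Des and Cdh15 calls were lost without control replicate 1 (adjusted p = 0.0935 and 0.118 by edgeR), and that of Cdh15 also without control replicate 2 (0.0802). The part of these differences in the Hox values below was not tested. In bulk RNA, fewer cells of one kind and less RNA per cell cannot be told apart.

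TPM values (transcript levels scaled by gene length and library size), as deposited, were used to compare genes with each other, since they are scaled by length. A gene was called expressed when it reached 1 TPM in both libraries of a group. With U0126 19 of the 39 rows were expressed: 8 of HoxA, 8 of HoxC, 3 of HoxD and 0 of HoxB. In control cells there were 18, namely 8 of HoxA, 7 of HoxC, 3 of HoxD and 0 of HoxB. Among rows under a Hox name, the 2 most abundant were the group 10 genes Hoxc10 and Hoxa10, in both groups of libraries. Hoxc10 (chromosome 7, 144577465 to 144582622, plus strand, rn6) had 43.4 and 44.6 TPM with U0126, against 42.7 and 42.6 TPM in controls. Hoxa10 (chromosome 4, 82285528 to 82295470, minus strand) had 30.3 and 27.7 TPM with U0126, against 36.5 and 38.4 TPM in controls. A second Hoxa10 row, listed as LOC100912608, had 36.6 and 34.5 TPM with U0126, against 41.5 and 43.96 TPM in controls, where it overlapped Hoxc10. Together with Hoxd10, Hoxc10 and the row named Hoxa10 held 37.7% and 37.8% of the summed Hox TPM with U0126, against 40.4% and 43.0% in controls.

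**Figure D1:**
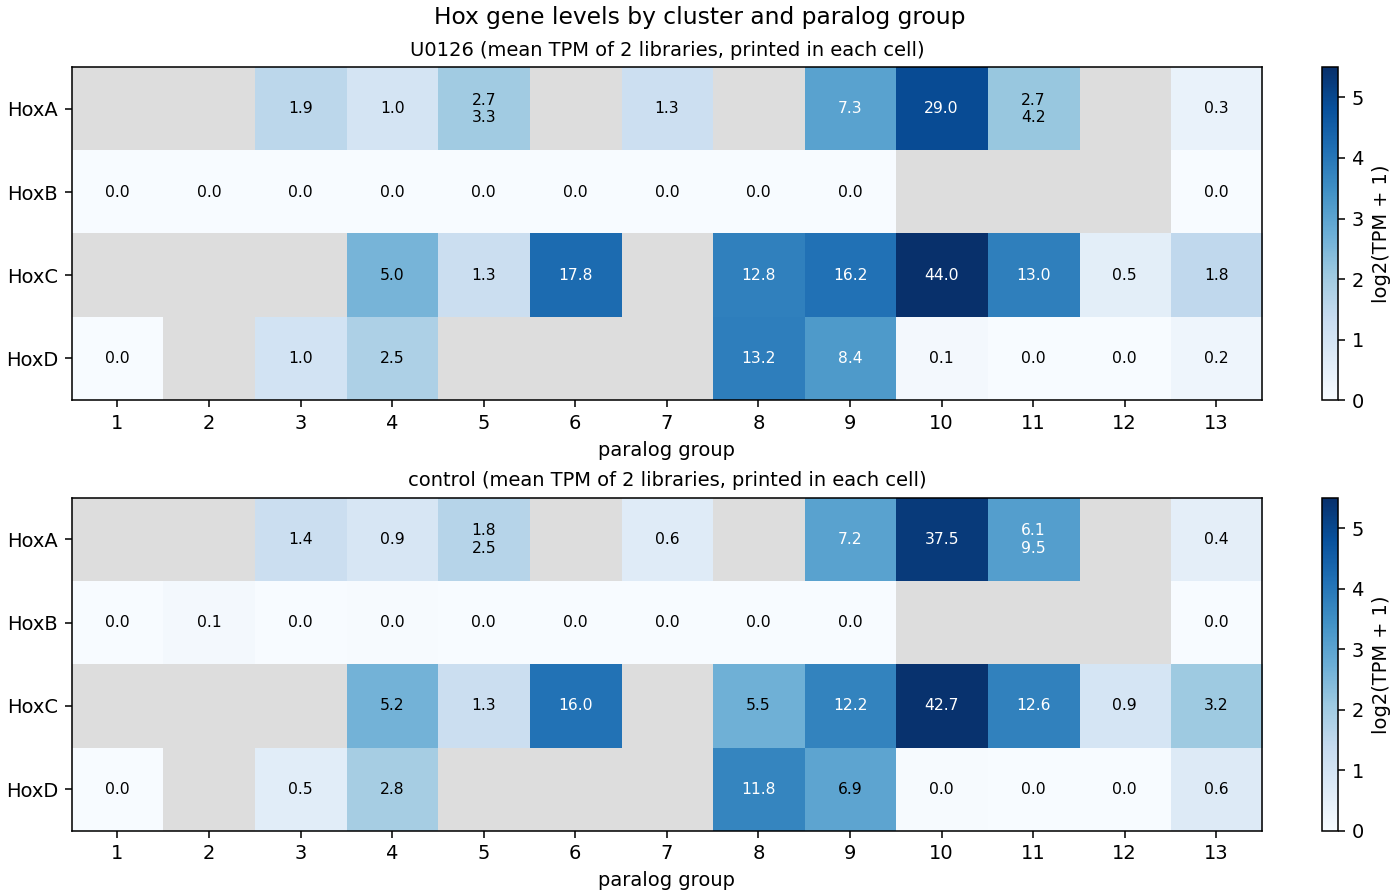
Mean TPM of the reported Hox rows by cluster (rows) and paralog group (columns), with U0126 (upper panel) and in control cells (lower panel), each over 2 libraries. Darker blue is a higher log2(TPM + 1), each cell prints its mean TPM, grey cells have no row shown, and 2 numbers in a cell are 2 rows of one gene. The darkest cells are Hoxc10 (43.99 TPM with U0126, 42.67 TPM in control) and Hoxa10 (29.0 TPM with U0126, 37.5 TPM in control), and the HoxB line is at or near 0 throughout.

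A second tier stood between about 5 and 16 TPM in control cells. Hoxc6, a thoracic and forelimb-level gene in the mouse, had 17.8 and 17.9 TPM with U0126, against 16.5 and 15.4 TPM in controls. Hoxc11, expressed in the hindlimb bud of mouse and chick, had 11.4 and 14.7 TPM with U0126, against 12.98 and 12.32 TPM in controls. Hoxd8 had 13.7 and 12.8 TPM with U0126, against 11.1 and 12.5 TPM in controls. The control values of Hoxc11, Hoxc9 and Hoxd8 overlapped, so their order among themselves was not resolved. Hoxa9 had 7.16 and 7.40 TPM with U0126, against 9.03 and 5.44 TPM in controls. Hoxd9 had 9.10 and 7.78 TPM with U0126, against 7.08 and 6.76 TPM in controls. Hoxc4 had 4.72 and 5.31 TPM with U0126, against 6.09 and 4.34 TPM in controls. For Hoxa9 and Hoxc4 the groups overlapped, and for Hoxd9 both U0126 libraries were above both controls.

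The lowest tier lay near the limit of 1 TPM. Hoxd4 averaged 2.46 ± 0.11 TPM with U0126 and 2.78 ± 0.06 TPM in controls (SD, n = 2 each, as for every mean below). Hoxa3 averaged 1.90 ± 0.0011 TPM with U0126 and 1.37 ± 0.20 TPM in controls. Hoxc5 averaged 1.33 ± 0.13 TPM with U0126 and 1.35 ± 0.61 TPM in controls. Hoxa4, Hoxa7, Hoxd3 and Hoxc12 averaged below 1 TPM in controls. The highest control level by paralog group was at group 10, and no row of groups 2, 7 and 12 was expressed in control cells. Groups 9 to 13 held 65.3% and 66.6% of the summed Hox TPM with U0126, against 72.3% and 73.1% in controls, with no overlap between the groups of libraries. Counted as CPM, not per length, the mean share was 68.4% with U0126 and 75.9% in controls, and without Hoxc10 it was 56.0% of TPM with U0126 and 64.9% in controls. Both rows of Hoxa5 and of Hoxa11 are counted in these shares. Rows listed under LOC names, among them LOC100912608 of Hoxa10, are not, so the shares depend on which rows carry a Hox name.

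The HoxB cluster (chromosome 10, 84031955 to 84215687, rn6) was close to silent. Of its 10 rows, 8 had no count in any library, namely Hoxb1, Hoxb3, Hoxb5, Hoxb6, Hoxb7, Hoxb8, Hoxb9 and Hoxb13. Hoxb2 had 4 counts, all in control replicate 1, and Hoxb4 had 2 counts, all in control replicate 2. At these depths a count of 0 allows up to 3 counts, which is between 0.0689 and 0.0829 CPM in a library. HoxD also had 3 rows without a count, Hoxd1, Hoxd11 and Hoxd12. Hoxd10, the group 10 gene of that cluster, had 0 and 8 counts with U0126, against 0 and 2 counts in controls. Within HoxD the highest levels were those of groups 8 and 9, and its group 10 to 12 genes, which act in the mouse limb, were at or near 0.

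Part of the HoxA cluster appears 2 times in the table, which affects how its values can be read. On chromosome 4 a stretch of the rn6 annotation repeats itself 85.4 to 87.0 kb further on, and 7 genes have a row in each copy. Hoxa5 and Hoxa11 keep their names in both. Hoxa7, Hoxa9 and Hoxa10 carry the Hox name once, the other row being LOC100911622 (Hox-A7-like), LOC103692128 (Hox-A9) or LOC100912608 (Hox-A10-like). The antisense gene Hoxa11-as and the microRNA gene Mir196b complete the 7. RefSeq's annotation of the later assembly GRCr8 lists each of 11 HoxA genes once. The second row took 57.5% of a pair's counts for Hoxa10, 39.5% for Hoxa11, 36.5% for Hoxa5, 32.1% for Hoxa7 and 55.0% for Hoxa9. The shares of Hoxa10 stayed between 56.3% and 58.0% in the 4 libraries. Mir196b had the same counts in both rows in every library. How the counting treated reads that match both copies is not given in the sources used here, so the levels of these HoxA genes are uncertain. Hoxa2 is present as NEWGENE_2813 (11 and 4 counts with U0126, 12 and 13 in controls) and Hoxa6 as LOC100909604, whose listed span runs across several HoxA rows, and the name rule does not count them among the 39.

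**Figure D2:**
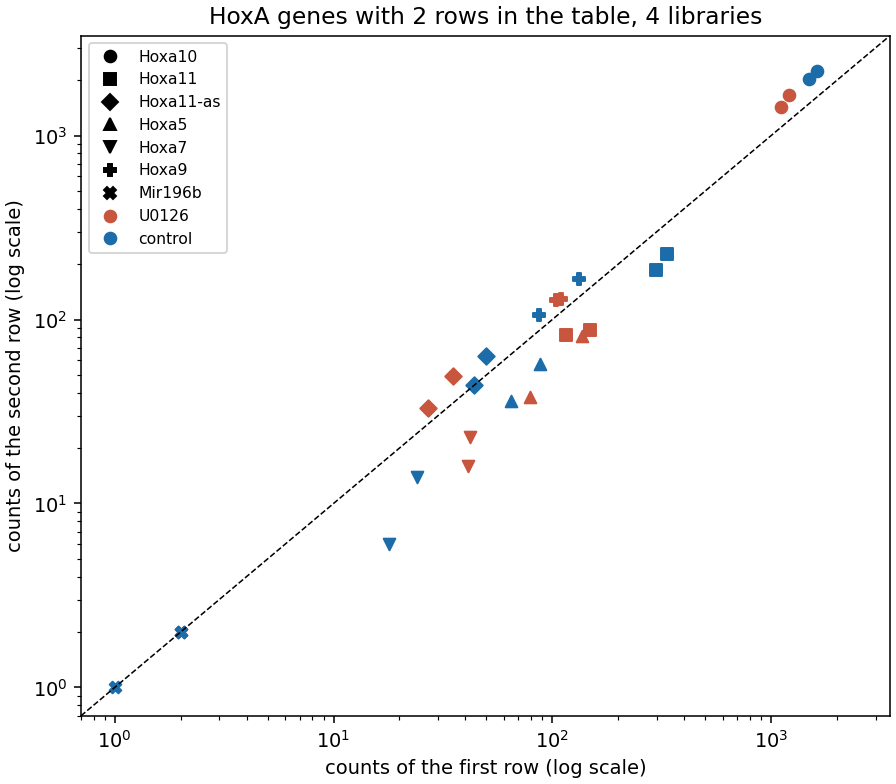
Counts of the second row (vertical, log scale) against the first row (horizontal, log scale) for the 7 HoxA-region genes with 2 rows, one point per library, U0126 in red and control in blue. The dashed line marks equal counts. Hoxa10 lies above the line in all 4 libraries, Hoxa11, Hoxa5 and Hoxa7 below it.

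Of 24 tested Hox rows, 1 was higher with U0126 (Hoxc8), 2 were lower (both rows of Hoxa11) and 21 did not pass, by edgeR's quasi-likelihood test with adjustment over 14023 genes. That is 12.5% of the tested members, while 19.9% of all tested genes were called. In single directions, 4.17% of the members were higher against 8.41% of all genes, and 8.33% lower against 11.5%. The 2 lower rows are copies of one gene and not separate evidence. Both U0126 libraries lay on one side of both controls in 16 of the 24 rows, or 66.7%, beside 62.8% of all tested genes. The median log2 fold change, U0126 over control, was 0.10 for the 24 rows and 0.02 for all genes, with 15 rows positive and 9 negative. The untested 15 rows were the 10 of HoxB, Hoxa13, Hoxd1, Hoxd10, Hoxd11 and Hoxd12, 11 of them without any count. Rows enter the test only with enough counts, so these counts describe the detected members and not the whole family.

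**Figure D3:**
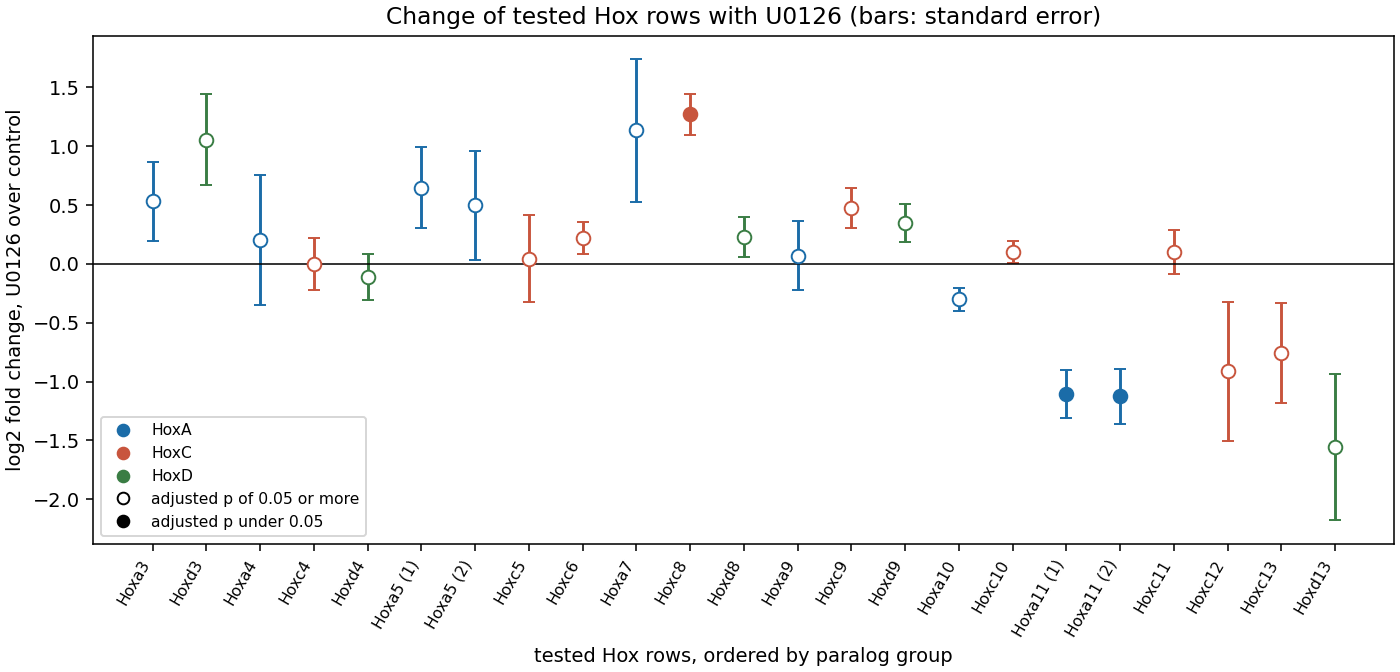
Log2 fold change of the reported Hox rows that were tested, U0126 over control, with its standard error, ordered by paralog group and coloured by cluster. Filled points are the 3 rows with an adjusted p under 0.05, Hoxc8 above 0 and both Hoxa11 rows below it, and (1) and (2) are the first and second row of one gene.

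Hoxc8 was the member that rose. It is a group 8 gene that patterns the thoracic region and limb-level nerves in the mouse, and it lies on chromosome 7 at 144605058 to 144608538, plus strand, rn6. It had 17.6 and 14.3 CPM with U0126, against 7.26 and 5.95 CPM in controls. Both U0126 libraries were above both controls. The log2 fold change was 1.27 ± 0.18 (SE), which is 2.41-fold higher, with an adjusted p of 0.00336 by edgeR's quasi-likelihood test. On the TPM scale Hoxc8 averaged 12.8 ± 1.80 with U0126 and 5.51 ± 0.63 in controls, and ranked 7 among the Hox rows with U0126 and 11 in controls. It passed in all 12 alternative analyses, with log2 fold changes between 1.11 and 1.42 and adjusted p between 2.77e-07 and 0.0468. Its HoxC neighbours did not pass. Hoxc9 had 9.25 and 8.04 CPM with U0126, against 5.77 and 6.66 CPM in controls (log2 fold change 0.47 ± 0.17, adjusted p = 0.0977 by edgeR), and Hoxc6 had 12.9 and 12.8 CPM with U0126, against 11.6 and 10.5 CPM in controls (0.22 ± 0.14, adjusted p = 0.306 by edgeR). Hoxd8, the paralog of Hoxc8 in the HoxD cluster, had 6.67 and 6.16 CPM with U0126, against 5.25 and 5.70 CPM in controls (0.23 ± 0.17, adjusted p = 0.393 by edgeR). Whether Hoxc8 differs from these neighbours in its change was not tested. Without U0126 replicate 2, Hoxc9 passed (adjusted p = 0.0340, log2 fold change 0.56), while its adjusted p reached 0.472 over the alternatives.

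Hoxa11 was the gene that fell. In the mouse it patterns the middle limb segment together with Hoxd11, which had 0 counts here. The first row (chromosome 4, 82211366 to 82215022, minus strand, rn6) had 3.90 and 3.18 CPM with U0126, against 8.42 and 6.85 CPM in controls. The second row (82298152 to 82300503) had 2.32 and 2.26 CPM with U0126, against 5.72 and 4.30 CPM in controls. In both rows each U0126 library was below both controls. The log2 fold changes were -1.11 ± 0.20 and -1.13 ± 0.23, or 2.15-fold and 2.18-fold lower, with adjusted p of 0.0105 and 0.0161 by edgeR's quasi-likelihood test. Neither row passed without control replicate 1 (adjusted p = 0.120 and 0.179, log2 fold change -0.95 and -0.91), and the second row did not pass without control replicate 2 (adjusted p = 0.0592, log2 fold change -1.32). Over all alternatives the adjusted p ran from 0.000714 to 0.120 in the first row and from 0.00509 to 0.179 in the second. The first row overlaps Hoxa11-as, a noncoding gene on the opposite strand, and the strand setting of the counting is not given in the sources used here, so reads of the 2 genes may not be separated there. Hoxa11-as had 35 and 27 counts in its first row with U0126, against 44 and 50 in controls, and 49 and 33 in its second row with U0126, against 44 and 63 in controls. Neither of its rows passed (adjusted p = 0.459 and 0.726 by edgeR). Hoxa11 row 2 does not overlap it in the table, but as a copy of row 1 it gives no separate measurement.

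**Figure D4:**
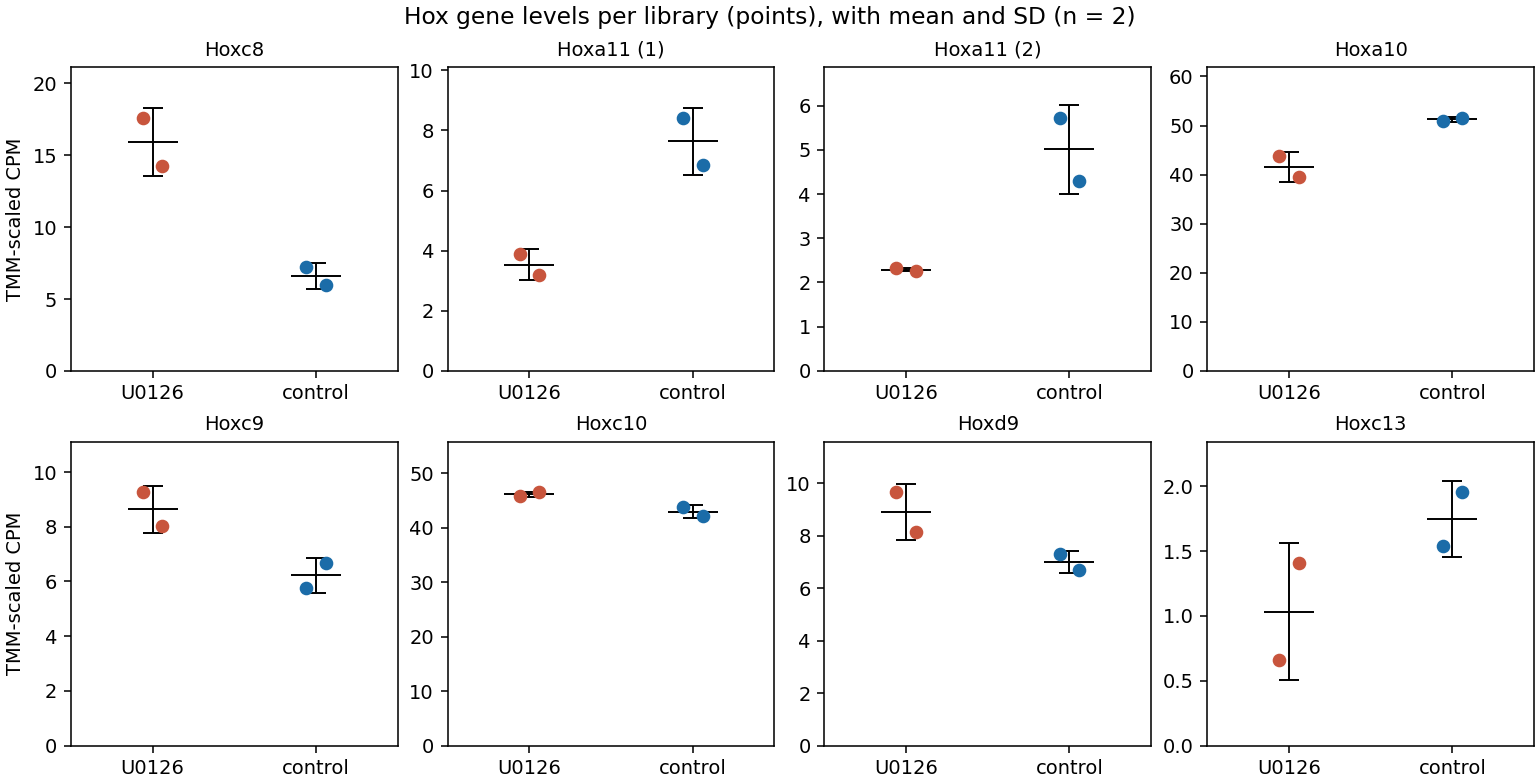
TMM-scaled CPM per library (points) with mean and SD (n = 2) of the 3 called Hox rows and 5 others, U0126 left and control right, each panel with its own axis from 0. The U0126 points lie above both controls for Hoxc8 (15.9 CPM on average with U0126, against 6.61 CPM in control) and below them for Hoxa11 row 1 (3.54 CPM with U0126, against 7.63 CPM in control) and row 2 (2.29 CPM with U0126, against 5.01 CPM in control).

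The neighbour of Hoxa11, Hoxa10, had 43.8 and 39.5 CPM with U0126, against 50.9 and 51.6 CPM in controls (log2 fold change -0.30 ± 0.10, adjusted p = 0.0771 by edgeR). Both U0126 libraries were below both controls, and the other row of the pair, LOC100912608, had a log2 fold change of -0.26 ± 0.10 (adjusted p = 0.109). Hoxa10 passed when library totals alone were used for scaling (adjusted p = 0.0464) and without U0126 replicate 1 (adjusted p = 0.0200), with log2 fold changes of -0.35 and -0.38, and its adjusted p reached 0.398 over the alternatives. Stretches of 250 bases before an annotated start of each of these genes are shown because they are promoters of the gene that fell and of its more abundant neighbour. They come from RefSeq's GRCr8 table, both on the minus strand, with the letters of a CCGGAA match, the core bound by ETS factors, in capitals. The Hoxa11 stretch, chr4:82676802-82677051, has 11 CpG dinucleotides and a GC content of 52.4%. The Hoxa10 stretch, chr4:82671491-82671740, has 14 CpG dinucleotides and a GC content of 55.6%. It is 1 of 2 Hoxa10 entries, the other (chr4:82665923-82666172, not printed) having 21 CpG dinucleotides and a GC content of 60%, also with a CCGGAA match.
Hoxa11: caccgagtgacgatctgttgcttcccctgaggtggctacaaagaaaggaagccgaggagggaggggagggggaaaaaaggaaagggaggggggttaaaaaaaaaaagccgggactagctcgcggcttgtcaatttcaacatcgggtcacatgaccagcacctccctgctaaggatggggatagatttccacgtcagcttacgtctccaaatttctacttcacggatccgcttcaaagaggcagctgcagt
Hoxa10: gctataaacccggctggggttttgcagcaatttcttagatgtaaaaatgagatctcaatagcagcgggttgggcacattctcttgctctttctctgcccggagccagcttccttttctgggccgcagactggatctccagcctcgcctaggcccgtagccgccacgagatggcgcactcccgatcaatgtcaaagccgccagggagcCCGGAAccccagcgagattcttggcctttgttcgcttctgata
Of the 37 Hox names, 18 had a promoter in this table, with 19 entries in all. Hoxc8 was not among them, so the motif counts do not cover the gene that rose. The 5 motifs searched on both strands were CCGGAA (ETS), TGANTCA (AP-1), TTTATGG (a group 9 to 13 Hox type), TGATTNAT (Pbx with Hox) and TGACAG (Meis). CCGGAA was in 3 of the 19 Hox entries, and in 12.6% of 33469 promoters of the same length. Of the 3, 2 were the Hoxa10 entries and 1 was that of Hoxd3. Hoxd3 had a log2 fold change of the other sign and did not pass (1.05 ± 0.39, adjusted p = 0.104 by edgeR). TGANTCA and TTTATGG were in 0 of the 19, beside 6.34% and 2.70% of all promoters. TGATTNAT was in 1 and TGACAG in 2, beside 2.82% and 15.8%. The median number of CpG dinucleotides was 20 in the Hox entries and 5 in all promoters. A match is a run of letters, not a measured binding site, and no match says only that the letters are not in this window.

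The remaining members are given by paralog group. Of the 6 tested rows of groups 1 to 4, 3 had a positive and 3 a negative log2 fold change (median 0.10), and none passed. Hoxc4 (-0.00 ± 0.22) and Hoxd4 (-0.11 ± 0.19) lay close to 0. Hoxd3 had 1.79 and 1.24 CPM with U0126, against 0.630 and 0.827 CPM in controls (log2 fold change 1.05 ± 0.39, adjusted p = 0.104 by edgeR). All 7 tested rows of groups 5 to 8 had a positive log2 fold change (median 0.50), of which Hoxc8 passed and Hoxc5 (0.04) turned to -0.01 with library totals. The 7 rows count Hoxa5 2 times. Hoxa7 had 16 and 23 counts with U0126, against 6 and 14 in controls (log2 fold change 1.14 ± 0.61, adjusted p = 0.241 by edgeR). Its other row, LOC100911622, had 41 and 42 counts with U0126, against 18 and 24 in controls (1.15 ± 0.41, adjusted p = 0.0970). The Hoxa5 rows had 3.61 and 2.18 CPM with U0126, against 2.22 and 1.49 CPM in controls, and 2.14 and 1.05 CPM with U0126, against 1.44 and 0.827 CPM in controls. The groups overlapped in both Hoxa5 rows, with adjusted p of 0.239 and 0.498 by edgeR. Without U0126 replicate 2 the first Hoxa5 row passed (adjusted p = 0.0438, up to 0.709 over its alternatives), and without U0126 replicate 1 the second row had a log2 fold change of -0.10.

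In groups 9 and 10, 4 of 5 tested rows had a positive log2 fold change (median 0.10) and none passed. Hoxc10 had 45.7 and 46.5 CPM with U0126, against 43.7 and 42.1 CPM in controls (log2 fold change 0.10 ± 0.09, adjusted p = 0.479 by edgeR). Hoxd9 had 9.65 and 8.15 CPM with U0126, against 7.29 and 6.71 CPM in controls (0.35 ± 0.16, adjusted p = 0.190 by edgeR). Hoxa9 had 3.43 and 3.51 CPM with U0126, against 4.19 and 2.43 CPM in controls (0.07 ± 0.29, adjusted p = 0.894 by edgeR). The U0126 libraries were above both controls for Hoxc10 and Hoxd9, and between them for Hoxa9.

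In groups 11 to 13, 5 of 6 tested rows had a negative log2 fold change (median -1.01). The 2 that passed were the Hoxa11 rows, which are copies of one gene, so that gene counts 2 times here. Hoxc11 was the exception, with 232 and 281 counts with U0126, against 268 and 269 in controls (log2 fold change 0.10 ± 0.18, adjusted p = 0.744 by edgeR). Hoxc13, a hair and nail gene in mouse and human, had 25 and 51 counts with U0126, against 61 and 85 in controls (-0.76 ± 0.43, adjusted p = 0.261 by edgeR). Hoxc12 had 7 and 10 counts with U0126, against 21 and 15 in controls (-0.91 ± 0.59, adjusted p = 0.329 by edgeR). Hoxd13, a digit gene in the mouse, had 10 and 12 counts with U0126, against 51 and 21 in controls (-1.56 ± 0.62, adjusted p = 0.130 by edgeR). In Hoxc12, Hoxc13 and Hoxd13 both U0126 libraries were below both controls. Without U0126 replicate 2, Hoxc13 passed (adjusted p = 0.0383, up to 0.683 over its alternatives). Hoxa13 was not tested and had 4 and 6 counts with U0126, against 7 and 7 in controls, a ratio of 0.801 (exact 95% interval 0.318 to 1.94, counting error only). The blocks of groups were drawn after the values had been seen, so their counts are a description without a test. On the TPM scale, groups 5 to 8 held 28.4% and 25.8% of the Hox sum with U0126, against 20.8% and 20.1% in controls, and groups 11 to 13 held 10.5% and 12.96% with U0126, against 18.0% and 16.6% in controls. These shares count both rows of Hoxa5 and of Hoxa11, but not the rows of Hoxa7, Hoxa9 and Hoxa10 listed under LOC names. The Hoxa11 rows averaged 2.69 and 4.15 TPM with U0126, against 6.07 and 9.51 TPM in controls.

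Summed by cluster, the HoxA rows had 62.5 and 56.1 CPM with U0126, against 76.0 and 70.8 CPM in controls, a log2 ratio of -0.31. The HoxC rows had 100.2 and 99.6 CPM with U0126, against 87.1 and 79.9 CPM in controls, a log2 ratio of 0.26. The HoxD rows had 22.1 and 20.1 CPM with U0126, against 18.6 and 17.9 CPM in controls, a log2 ratio of 0.21. In each of the 3 clusters the sums of the 2 groups of libraries did not overlap. The HoxA sum was lower and the HoxC and HoxD sums were higher with U0126. An exact permutation test of 2 against 2 libraries cannot give a two-sided p below 0.333, so no test was made of these sums. The directions hold for the deposited TPM, for RLE factors and library totals, and without any single library. HoxA is mostly Hoxa10, whose row alone had a mean of 41.6 of the cluster's 59.3 CPM with U0126 and 51.2 of 73.4 CPM in controls. In HoxC, the Hoxc8 row had a mean of 15.9 of 99.9 CPM with U0126 and 6.61 of 83.5 CPM in controls. Single rows did not all follow the sum of their cluster. Tested HoxA rows with a positive log2 fold change numbered 6, and those with a negative one 4 (median 0.14). In HoxC these were 6 and 3 (median 0.10), and in HoxD 3 and 2 (median 0.23). Over all Hox rows the deposited TPM summed to 195.5 and 191.7 with U0126, against 196.2 and 188.7 in controls, so the family's total overlapped between the groups. As a share of it, HoxA held 29.5% and 28.1% with U0126, against 37.2% and 35.6% in controls, and HoxC held 57.0% and 59.3% with U0126, against 51.4% and 52.1% in controls. The order of the clusters depends on which HoxA rows are counted. With the 5 HoxA rows that carry a placeholder name added, HoxA had 103.3 and 93.9 CPM with U0126, against 121.2 and 113.5 CPM in controls, so it lay above HoxC in controls and overlapped it with U0126. It then held 43.5% and 41.7% of the summed TPM with U0126, against 50.6% and 49.6% in controls, while HoxC held 45.6% and 48.1% with U0126, against 40.4% and 40.8% in controls. These sums count the genes with 2 rows 2 times, as the sums by name do for Hoxa5 and Hoxa11.

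**Figure D5:**
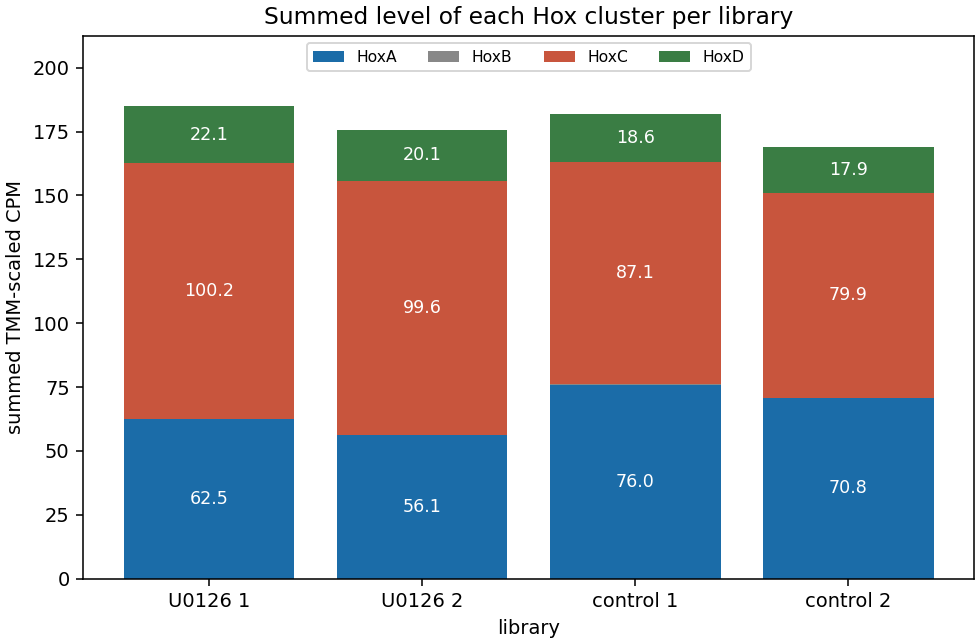
Summed TMM-scaled CPM of the Hox rows in each library, stacked by cluster, U0126 libraries left and controls right, with the sum of each cluster printed. HoxA is 62.5 and 56.1 CPM with U0126, against 76.0 and 70.8 CPM in controls, HoxC is 100.2 and 99.6 CPM with U0126, against 87.1 and 79.9 CPM in controls, and HoxB is too low to see.

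Other rows inside the cluster spans numbered 9 in HoxA, 2 in HoxB, 3 in HoxC and 4 in HoxD. Of these 18, 7 were tested, all in HoxA, and 0 passed. They include the mir-196 genes, which sit between the group 9 and group 10 genes of HoxA and HoxC and between Hoxb9 and Hoxb13 in HoxB. In the mouse, miR-196 binds Hoxb8, Hoxc8 and Hoxa7 transcripts, which is not a full list of its targets. Hoxc8 was higher with U0126, and Hoxb8 had 0 counts. Hoxa7 did not pass (log2 fold change 1.14 ± 0.61, adjusted p = 0.241 by edgeR). Hoxd8, the paralog of Hoxc8 in the HoxD cluster, did not pass either (0.23 ± 0.17, adjusted p = 0.393 by edgeR). A part of miR-196 was not tested. The mature sequences are shown for these genes, chosen after the values were seen, with the seed (bases 2 to 8) in capitals, from RefSeq.
rno-miR-196a-5p: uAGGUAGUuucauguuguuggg
rno-miR-196b-5p: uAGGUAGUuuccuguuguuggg
rno-miR-196c-5p: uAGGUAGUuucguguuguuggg
All 3 share one seed, AGGUAGU. The gene rows had 0 and 0 counts with U0126, against 0 and 2 in controls, for Mir196a, and 2 and 2 with U0126, against 2 and 1 in controls, in each row of Mir196b, and 0 throughout for Mir196c. The levels of the mature miRNAs were not measured here.

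Hox proteins bind DNA together with partners of the TALE class, the Pbx, Meis and Pknox homeodomain proteins. All 9 TALE genes were tested, 1 was higher with U0126, 1 lower and 7 did not pass (median log2 fold change -0.17, beside 0.02 for all genes). Across all tested genes, 8.41% were higher and 11.5% lower. Pknox2 had 9.96 and 11.6 CPM with U0126, against 3.86 and 4.25 CPM in controls (log2 fold change 1.41 ± 0.17, adjusted p = 0.00202 by edgeR). Meis1 had 34.8 and 34.6 CPM with U0126, against 45.2 and 47.9 CPM in controls (-0.43 ± 0.10, adjusted p = 0.0217 by edgeR). The Meis1 call was lost without control replicate 1 (adjusted p = 0.153) or control replicate 2 (0.252), and its adjusted p was as low as 0.00703 over the alternatives. Pbx2 and Pbx3, the most abundant Pbx genes here by CPM, did not pass (adjusted p = 0.210 and 0.374).

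Genes that set limb position and pattern changed in both directions. Of 21 tested, 3 were higher with U0126 (Shox2, Gli3 and Tbx15), 5 lower (Prrx2, Msx1, Msx2, Tbx2 and Tbx3) and 13 did not pass (median log2 fold change -0.38), beside 8.41% of all tested genes higher and 11.5% lower. Without either control library, 0 were called higher. Msx2, a homeobox gene of the limb bud margin, had 0.791 and 1.13 CPM with U0126, against 7.87 and 6.18 CPM in controls (7.29-fold lower, adjusted p = 0.000734 by edgeR). Msx1 had 13.8 and 15.7 CPM with U0126, against 34.4 and 29.3 CPM in controls (2.16-fold lower, adjusted p = 0.00207 by edgeR). Prrx2, a homeobox gene of limb mesenchyme, had 77.3 and 85.3 CPM with U0126, against 166.3 and 154.2 CPM in controls (1.97-fold lower, adjusted p = 0.000866 by edgeR). The limb type genes did not pass or were not tested. Tbx5, which marks the forelimb, had 0 and 0 counts with U0126, against 2 and 0 in controls. Tbx4, which marks the hindlimb, had 3.48 and 3.73 CPM with U0126, against 5.77 and 4.18 CPM in controls (log2 fold change -0.46 ± 0.23, adjusted p = 0.200 by edgeR). Pitx1, the other hindlimb gene, had 0.712 and 0.967 CPM with U0126, against 0.857 and 0.850 CPM in controls (-0.03 ± 0.40, adjusted p = 0.973 by edgeR). Tbx4 and Pitx1 were detected in all 4 libraries and Tbx5 in 1. Without U0126 replicate 1 the log2 fold change of Pitx1 was 0.18.

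Polycomb complexes keep silent Hox genes off by methylating histone H3 at lysine 27, and Trithorax proteins oppose them. Of 21 tested Polycomb genes, 1 was higher with U0126 (Ezh1), 3 lower and 17 did not pass (median log2 fold change 0.09). The shares over all tested genes, which also apply to the lists below, were 8.41% higher and 11.5% lower. Ezh2, the methyltransferase most used in dividing cells, had 6.35 and 5.91 CPM with U0126, against 18.3 and 19.0 CPM in controls (3.04-fold lower, adjusted p = 0.000497 by edgeR). Phf19, a subunit that brings the complex to chromatin, had 2.79 and 1.96 CPM with U0126, against 13.2 and 11.7 CPM in controls (5.23-fold lower, adjusted p = 0.000579 by edgeR). Cbx2 had 1.63 and 1.57 CPM with U0126, against 2.87 and 3.65 CPM in controls (2.03-fold lower, adjusted p = 0.0338 by edgeR). The Cbx2 call was lost without control replicate 1 (adjusted p = 0.122), without control replicate 2 (0.310) and with a replicate block (0.0584), and its adjusted p was as low as 0.0274 over the alternatives. Ezh2 and Phf19 fell in the libraries in which the 6 proliferation markers fell, and the part of that difference was not tested. The Ezh1 call was lost when libraries were scaled by their totals (adjusted p = 0.0631), with no filter beyond 1 count (0.0567) and without control replicate 1 (0.356) or control replicate 2 (0.124), with 0.0168 as its lowest adjusted p. Of 11 tested Trithorax and H3K27 demethylase genes, 0 were higher, 1 was lower (Psip1, 19.8 and 14.9 CPM with U0126, against 25.4 and 26.9 CPM in controls, adjusted p = 0.0394) and 10 did not pass by edgeR. The Psip1 call was lost without control replicate 1 (adjusted p = 0.174) or control replicate 2 (0.251), with 0.00138 as its lowest adjusted p. None of the 7 CTCF and cohesin genes passed by edgeR. The nearest was Rad21, with 92.4 and 93.8 CPM with U0126, against 112.1 and 115.9 CPM in controls (adjusted p = 0.0527), and it passed by DESeq2 (0.0335) and limma-voom (0.0483), with a range of 0.0233 to 0.376 over its alternatives. None of the 7 was higher or lower in that count, and the median log2 fold change was -0.06.

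Retinoic acid switches on the low-numbered Hox genes in the embryo. Of 13 tested rows of this pathway, 0 were higher with U0126, 3 lower and 10 did not pass (median log2 fold change 0.03). Across all tested genes, 8.41% were higher and 11.5% lower. Crabp1, a retinoic acid binding protein, had 0.738 and 0.221 CPM with U0126, against 4.31 and 2.83 CPM in controls (7.34-fold lower, adjusted p = 0.00876 by edgeR). Crabp2 has 2 rows, of which 1 passed, with 1.29 and 1.38 CPM with U0126, against 3.08 and 3.35 CPM in controls (adjusted p = 0.0143 by edgeR). The other row had 4 and 9 counts with U0126, against 15 and 28 in controls. Its log2 fold change was also negative but did not pass (-1.53 ± 0.66, adjusted p = 0.156 by edgeR). Cyp26b1, which degrades retinoic acid, had 1.50 and 1.60 CPM with U0126, against 3.40 and 3.15 CPM in controls (2.11-fold lower, adjusted p = 0.0231 by edgeR). Without control replicate 1 these calls were lost (adjusted p = 0.0786, 0.105 and 0.195), and without control replicate 2 those of Crabp2 and Cyp26b1 were (0.158 and 0.160). The lowest adjusted p over the alternatives was 7.50e-06 for Crabp1, 0.00835 for Crabp2 and 0.0159 for Cyp26b1. Aldh1a1 and Aldh1a2, which make retinoic acid, had 0 counts in all 4 libraries. Aldh1a3, of the same family, had 16 and 9 counts with U0126, against 6 and 16 in controls (adjusted p = 0.753 by edgeR).

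Most of the listed genes that start or time Hox expression in the embryo were not detected. Of 8 such genes, 5 had no count (Cdx2, Cdx4, Lin28a, Lin28b and T) and 2 were tested. The shares over all tested genes, here and for the next list, were 8.41% higher and 11.5% lower with U0126. Gdf11, a ligand that turns on posterior Hox genes in the mouse trunk, had 49.3 and 61.5 CPM with U0126, against 79.3 and 74.4 CPM in controls (log2 fold change -0.47 ± 0.12, adjusted p = 0.0377 by edgeR). That call was lost without control replicate 1 (adjusted p = 0.248) or control replicate 2 (0.176), with 0.000812 as its lowest adjusted p. Of 12 ParaHox and Hox-linked homeobox genes, 6 had no count, 2 were tested and 1 was higher. This was Meox2, a mesoderm homeobox gene, with 49.7 and 53.1 CPM with U0126, against 29.2 and 31.2 CPM in controls (1.70-fold higher, adjusted p = 0.00262 by edgeR), a call that was lost without control replicate 1 (adjusted p = 0.0550, from 3.11e-07 over the alternatives).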

How the data were processed

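The deposited table lists 32623 Ensembl genes of the rat genome build rn6, the build named in the submitters' processing notes. Per the file headers, the authors deposited raw read counts, TPM values and FPKM values for each of the 4 libraries. The deposited counts are whole numbers per gene, not normalized, and 0 rows named no gene. The deposited TPM values, scaled by length and depth by the authors, were used to compare genes with each other. The deposited FPKM values served only as an alternative cut for expression. RNA was taken up in Trizol and libraries followed a standard Illumina procedure, per the labels' protocols. No label or header names the aligner, the counter, whether strand was used or which annotation release was taken.

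Counts were filtered with edgeR's filterByExpr (minimum count 10, minimum total 15), which left 14023 genes. They were scaled by TMM and tested, U0126 against control, with edgeR 4.0.16 (quasi-likelihood F test, two-sided, prior count 0.125) in R 4.3.3, with Benjamini-Hochberg adjustment across all genes tested and a threshold of 0.05. The standard error is the size of the log2 fold change over the root of F. CPM levels carry the TMM scaling. Alternatives used RLE factors, library totals alone, no filter beyond 1 count, a mean CPM of at least 1, DESeq2 1.42.0, limma-voom (limma 3.58.1), each library left out in turn, a replicate block, and HoxA rows of one gene summed. The procedure was tested on simulated data, where more of its calls than the nominal share fell on unchanged genes, so calls near the threshold are less certain. Intervals and floors (3 counts) cover counting error only.

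The members and the gene lists were chosen with earlier results of these data known. The HoxA summing, the blocks of paralog groups, the motifs and the sequences shown were chosen after the values were seen. Named are every called Hox row, the 15 with the highest control TPM, groups 11 to 13, rows with counts but no test, Tbx5, Tbx4, Pitx1 and, from each list, up to 3 called genes with the smallest adjusted p or else its most abundant tested gene. The lists were TALE cofactors, limb factors, Polycomb, Trithorax, CTCF and cohesin, retinoic acid, axial regulators, Hox-linked homeobox genes, proliferation, and markers of tendon and 8 other cell types. Other genes were named for their role or after their values were seen. Some genes that the rule gives are not reported here, although counts and sums over the Hox rows include them.

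The replicate numbers of the labels, shared by 2 pairs of libraries, were not taken to pair them. Across 14023 genes, the difference between replicates 1 and 2 with U0126 correlated with that in controls at r = -0.046 (Spearman's rho = -0.023), and across the 24 tested Hox rows at r = 0.272, with genes that are not independent replicates. The main test has no replicate block. The libraries of a group differed by more than sampling noise, with a chi-square per degree of freedom of 46.2 with U0126 and 15.5 in controls.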

Additional observations from a re-analysis of the deposited data

How the results depend on the processing

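Over 272 alternatives for 23 Hox rows, 251 kept their direction and their side of the threshold, 3 lost a call, 5 gained one and 13 turned direction, all of the last in rows that did not pass. With each library left out in turn, the number of changed genes ran from 899 to 4644 (2792 with all 4 libraries), with both low values obtained without a control library. The count of higher Hox rows ran from 1 to 3 and of lower rows from 0 to 3, and the HoxA rows of one gene summed gave 1 lower gene. For the 8 lists on Hox partners and regulators, higher members ran from 1 to 15 (6 with all libraries) and lower members from 7 to 20 (14). A replicate block gave 2371 changed genes, 1 higher and 2 lower Hox rows, and turned the log2 fold change of Hoxc4 to 0.017. Beyond that it ended only the Cbx2 call among the called genes named here. Hoxc4 was also 0.0010 with a mean CPM of at least 1 and 0.028 by limma-voom, and Hoxc5 was -0.010 with library totals. With each library left out in turn, log2 fold changes spanned 0 in Hoxa4 (-0.21 to 0.59), the second Hoxa5 row (-0.10 to 0.94), Hoxa9 (-0.27 to 0.51), Hoxc4 (-0.25 to 0.29), Hoxc5 (-0.38 to 0.63), Hoxc11 (-0.090 to 0.27) and Pitx1 (-0.27 to 0.18). The cause of these turns was not tested. Expressed Hox rows in controls numbered 21 at 0.5 TPM, 14 at 2 TPM and 14 at 1 FPKM. The share of groups 9 to 13 was 68.4% with U0126 and 75.9% in controls by CPM, and, without the most abundant member, 56.0% with U0126 and 64.9% in controls. The median log2 fold change of all genes moved from 0.02 to -0.04 with library totals. Low counts limit Hoxa13, Hoxd10, Hoxc12, Hoxd13 and the HoxB rows most.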

Other observations

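The remaining marker lists gave the following values, beside 8.41% of all tested genes higher and 11.5% lower with U0126. Of 4 tested mural cell markers, Kcnj8 (21.1-fold) and Notch3 (1.89-fold) were higher and Mcam (2.43-fold) lower with U0126, and the Notch3 call was lost without control replicate 1 (adjusted p = 0.0868 by edgeR). Of 4 tested cartilage markers, Col2a1 (15.6-fold) and Matn3 (5.16-fold) were higher and Acan (2.42-fold) lower, and the Matn3 call was lost without control replicate 1 (adjusted p = 0.0837) or control replicate 2 (0.105). The Schwann cell marker S100b was higher (3.31-fold, with 41.0 and 24.6 CPM with U0126, against 12.7 and 7.17 CPM in controls), while Sox10 had no count. The S100b call was lost without control replicate 2 (adjusted p = 0.0595 by edgeR). The only tested endothelial marker, Tek, did not pass (19 and 6 counts with U0126, against 31 and 25 in controls), nor did any of 4 immune markers, of which Cd14 was the most abundant (10.9 and 10.7 CPM with U0126, against 12.3 and 11.9 CPM in controls). Krt8, the only tested epithelial marker, did not pass (3.48 and 3.56 CPM with U0126, against 2.62 and 2.83 CPM in controls), and no adipocyte marker had enough counts to be tested. Whether these differences have a part in the Hox values was not tested.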
